A study of Mus musculus with 3 samples.

Results

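The heat shock chaperones described here are 10 genes whose proteins fold, hold or refold other proteins: Hspa1a, Hspa1b, Dnajb1, Hsph1, Hspb1, Hsp90aa1, Hspa8, Hsp90ab1, Hspe1 and Hspd1. They were chosen by gene symbol, each symbol matched 1 gene, and they are 10 of the 32285 genes measured. From textbook knowledge, Hspa1a, Hspa1b, Dnajb1, Hsph1, Hspb1 and Hsp90aa1 were taken as stress-inducible and Hspa8, Hsp90ab1, Hspe1 and Hspd1 as constitutive.

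The study sequenced RNA of single live cells from mouse brain after a transient ischaemic attack (TIA), which was made by blocking the middle cerebral artery with a filament for 5 min. There were 3 libraries, each from 3 pooled mice of strain C57BL6J and genotype WT: a control labelled naive, and libraries labelled "24h post stroke" and "3d post stroke". The labels give no sex or age. The study's methods put its mice at 10 to 12 weeks, with cohorts of other ages or sex named for other assays, and its figure legend gives males for these data. Brains were freed of white matter and meninges and dissociated with papain, dead cells were removed, and cells that did not take up propidium iodide were sorted. With 1 library per condition there is no replicate, a difference between conditions is also one between libraries, and these cannot be told apart. The study's legends call the control naive for its gene counts and sham for its heat map. If it was naive, as labelled, it also lacked the anaesthesia and neck surgery of the TIA mice. Their effects then cannot be told apart from those of the occlusion. The naive library is the control of the 24 h and of the 3 d library, so the ratios at both times share its counts.

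Heat shock proteins were first known from cells kept above their normal temperature. Unfolded proteins release heat shock factor 1 (HSF1) from its complex with chaperones, and HSF1 then binds repeated GAA units in the promoters of the inducible genes. HSP70 proteins bind unfolded stretches with J-domain partners and exchange factors, HSP90 proteins finish the folding of kinases and steroid receptors, the HSP60 chaperonin folds proteins inside mitochondria, and small heat shock proteins hold unfolded chains. In the brain, HSP70 has long served as a marker of cells stressed by ischaemia, and the same genes also respond to handling of tissue at warm temperatures.

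The naive library held 4804 cells with 37987228 unique molecular identifiers (UMIs, 1 per captured molecule). At 24 h the library was the smallest, at 1619 cells and 12919691 UMIs. The one at 3 d was the largest, at 5505 cells and 48636436 UMIs. Those cells with at least 500 genes and at most 7% mitochondrial UMIs were kept, which left 4018, 1225 and 4781 cells at a median of 7750, 8123 and 7868 UMIs. The mitochondrial limit was passed by 11.8% of the naive cells, 21.0% of the 24 h cells and 11.4% of the 3 d cells. Of the cell barcodes, 3 occurred in both the naive and the 24 h library, 8 in both the naive and the 3 d library, and 4 in both TIA libraries.

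The kept cells fell into 14 clusters, and 6 classes had at least 50 cells in each library: microglia-like, astrocyte-like, oligodendrocyte-like, neuroblast-like, endothelial-like and pericyte-like cells. The names rest on marker genes, with naming thresholds set after the clusters were seen, and may differ from the study's names. The neuroblast-like class held Dcx in 94.2% of its cells and the glutamatergic neuron gene Slc17a7 in 1 of 1240. Microglia-like cells numbered 1017, 282 and 1270 in the naive, 24 h and 3 d libraries, and astrocyte-like cells 894, 238 and 1427. The oligodendrocyte-like class was the smallest at 24 h, with 232, 72 and 249 cells. Neuroblast-like cells numbered 767, 109 and 364, endothelial-like cells 287, 229 and 591, and pericyte-like cells 159, 182 and 328. Hspa1a, Hspa1b, Hsph1 and Hspb1 were among the variable genes used for clustering, so their levels by class are a description.

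Levels are UMIs of a gene summed over a class and library, per 1000000 UMIs of that sum (CPM). The assay reads 3′ ends and counts 1 UMI per molecule, so levels of different genes can be set side by side without division by length. In the naive library, the 10 members together reached 5803 CPM in endothelial-like, 5462 CPM in oligodendrocyte-like, 3340 CPM in pericyte-like, 3244 CPM in neuroblast-like, 2462 CPM in microglia-like and 1166 CPM in astrocyte-like cells. Of the 6 classes, endothelial-like and oligodendrocyte-like cells thus held the most chaperone RNA in CPM, but not of the same members. The inducible members made up 59.2% of the members' UMIs in endothelial-like cells, 48.7% in pericyte-like, 38.0% in microglia-like, 37.3% in oligodendrocyte-like, 27.9% in neuroblast-like and 16.7% in astrocyte-like cells. At 24 h these shares were 55.0%, 51.7%, 31.1%, 42.2%, 27.9% and 21.5% in the same order. The shares at 3 d were 63.3%, 44.2%, 39.4%, 42.0%, 26.3% and 18.0%. With Hsp90aa1 counted as inducible, vascular classes thus had the largest inducible shares in each of the 3 libraries and astrocyte-like cells the smallest. At 3 d the pericyte-like share, 44.2%, was close to the oligodendrocyte-like share, 42.0%. Hsp90aa1 alone made up 33.8% of the members' UMIs in naive oligodendrocyte-like, 25.35% in neuroblast-like, 14.2% in microglia-like and 12.9% in astrocyte-like cells. In pericyte-like and endothelial-like cells it made up 11.3% and 4.41%. The order of the classes with lower shares thus rests on the grouping of Hsp90aa1.

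The members also differed in how evenly they were spread over the 6 classes of the naive library. The highest class exceeded the lowest 850-fold for Hspb1, 122-fold for Hspa1a and 42.2-fold for Hspa1b. The lowest class of these 3 was astrocyte-like, where none of them was shown above the Cldn5 gauge given below, so the folds are not exact. For Hsp90aa1 the span was 12.2-fold, for Hsp90ab1 5.68-fold, for Hsph1 5.12-fold and for Dnajb1 4.74-fold. Hspa8 spanned 2.52-fold, Hspd1 2.41-fold and Hspe1 1.38-fold. The 3 members with the widest span were inducible, and the 3 with the narrowest were constitutive.

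**Figure D1:**
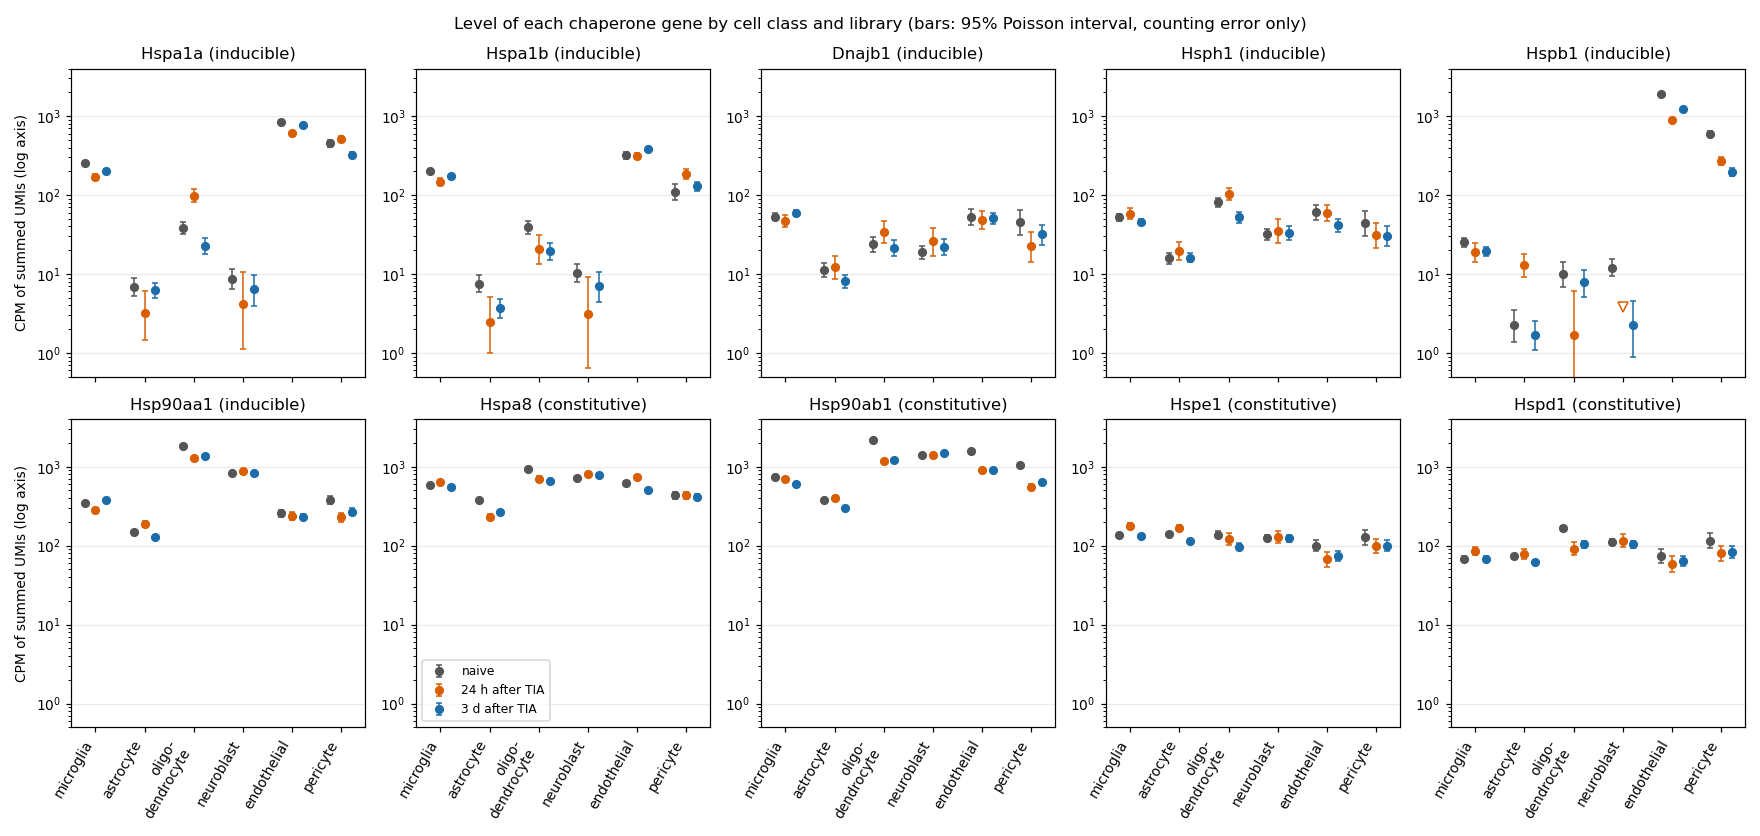
Level of each of the 10 members (CPM, logarithmic axis) in the 6 classes, with 1 point per library and exact Poisson 95% intervals. Hspb1 stands at 1910 CPM in naive endothelial-like and 2.25 CPM in naive astrocyte-like cells, while Hspe1 lies between 100.4 and 139 CPM in the 6 naive classes.

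Changes after TIA were mostly towards lower levels. A member in a class was called higher or lower when its CPM differed at least 1.5-fold from naive and both sums together held at least 30 UMIs. Each of the 60 pairs of member and class had enough UMIs. At 24 h, 3 of the 60 pairs were higher (5.0%) and 17 were lower (28.3%), beside 8.49 and 12.2% of all genes tested in the 6 classes together. At 3 d, 0 pairs were higher and 11 were lower (18.3%), beside 7.98 and 4.80% of all genes. The share of lower pairs was thus above that of all genes at both times, and the share of higher pairs below it. The 24 h counts depended on the cells used. Without called doublets, 3 of 55 pairs with enough UMIs were higher and 11 lower, beside 8.96 and 10.0% of all genes. Called doublets were 122 of the kept naive cells (3.04%), 6 at 24 h (0.49%) and 140 at 3 d (2.93%), so that leaving them out changed the 24 h ratios mainly on the naive side. In cells with at most 1 UMI of other classes' markers, 5 of 30 pairs were higher and 9 lower, beside 15.4% of all genes in each direction. Without the 5 cells with most UMIs of each gene, which are a larger part of the small 24 h classes, 1 of 53 pairs was higher and 15 lower, beside 5.30 and 22.3% of all genes.

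Of the 36 inducible pairs, 3 were higher and 12 lower at 24 h, and 7 were lower at 3 d. Among the 24 constitutive pairs, 5 were lower at 24 h and 4 at 3 d, with 0 higher. At 24 h, 8.33% of the inducible pairs were thus higher and 33.3% lower, and 20.8% of the constitutive pairs were lower. All genes gave 8.49% higher and 12.2% lower. At 3 d, 19.4% of the inducible and 16.7% of the constitutive pairs were lower, beside 4.80% of all genes, with 7.98% of all genes higher. The median log2 ratio to naive was −0.25 at 24 h and −0.38 at 3 d for the inducible pairs. For the constitutive pairs it was −0.04 and −0.29. The median of all genes in each class lay between −0.05 and 0.07. In cells with at most 1 UMI of other classes' markers, the 24 h medians were −0.75 for the inducible and 0.15 for the constitutive members, and at 3 d −0.09 and −0.15. They cover just the 30 pairs at 24 h and 31 at 3 d with enough UMIs there, against 60 above, so the sets of pairs differ. Intervals given with ratios are exact binomial 95% intervals, and like all bounds here they cover counting error only.

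Hspa1a and Hspa1b encode the classical inducible HSP70, and their coding sequences are nearly identical. Their transcripts shared 49.3% and 52.3% of their 90-base windows, but 0 of 411 windows in the last 500 bases, near which the assay reads. Reads from the shared stretch fit either gene, and how many there were was not measured, so the split of UMIs between the 2 genes is uncertain. Hspa1a (ENSMUSG00000091971) stood at 837 CPM in naive, 606 CPM in 24 h and 766 CPM in 3 d endothelial-like cells. Pericyte-like cells held 453, 519 and 324 CPM, and microglia-like cells 254, 169 and 204 CPM. Below these came oligodendrocyte-like cells with 38.3, 98.2 and 22.6 CPM. Neuroblast-like cells had 8.74, 4.17 and 6.36 CPM, and astrocyte-like cells 6.86, 3.17 and 6.22 CPM. The order of the 6 classes was the same in the 3 libraries, and the intervals of the neuroblast-like and astrocyte-like levels overlapped in each. At 24 h the endothelial-like and pericyte-like levels overlapped as well.

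For Hspa1a the ratio in microglia-like cells at 24 h was at the limit, with a log2 of −0.59 (interval −0.73 to −0.45), and it was −0.32 at 3 d. It stood at −0.58 without called doublets, −0.58 and −0.57 at other cluster resolutions and −0.56 with totals free of mitochondrial and ribosomal protein UMIs, each within the limit. Without the 5 cells with most Hspa1a UMIs in each library it was −0.97, since those cells held 29.6% of the class's Hspa1a UMIs at 24 h, 6.31% in naive and 6.10% at 3 d. It reached −1.40 in microglia-like cells with at most 1 UMI of other classes' markers. Endothelial-like cells gave −0.47 and −0.13, and pericyte-like cells 0.20 and −0.48, all within the limit.

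Of the 6 classes at both times, the only rise of Hspa1a over naive past 1.5-fold was in oligodendrocyte-like cells, with a log2 ratio of 1.36 (0.98 to 1.73) at 24 h, and a lower level at 3 d, −0.76 (−1.19 to −0.34). The rise rested on 5 of the 72 cells, which held 100 of the 118 Hspa1a UMIs (84.8%), with 52 in a single cell. Without the 5 cells with most UMIs in each library the ratio was −0.55. Those 5 cells also carried 2697 CPM of microglia markers, against 161 CPM in the other 67 cells, and 1 of them was a called doublet. The same held in the other libraries: the 5 cells with most Hspa1a had 4864 CPM of microglia markers in naive, against 226 CPM in the rest, and 2146 CPM at 3 d, against 502 CPM, with 2 and 3 called doublets. The part of microglial RNA in these values was not tested. In astrocyte-like cells the ratio at 24 h was −1.11, from 61 and 9 UMIs, and it turned to 0.65 without called doublets, 0.45 as a mean over cells and 2.10, from 2 and 5 UMIs, in cells with at most 1 UMI of other classes' markers. Neuroblast-like cells gave −1.07 from 48 and 4 UMIs, with an interval from −3.00 to 0.38. That value became 0.10 without called doublets, −0.35 as a mean over cells and, without the 5 cells with most UMIs, a bound of −0.22 from 0 UMIs at 24 h.

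Hspa1b (ENSMUSG00000090877) was at 318 CPM in naive, 312 CPM in 24 h and 381 CPM in 3 d endothelial-like cells. Its levels were 201, 148 and 172 CPM in microglia-like and 110.5, 184 and 129 CPM in pericyte-like cells. Oligodendrocyte-like cells held 38.9, 20.8 and 19.4 CPM, neuroblast-like cells 10.4, 3.13 and 6.99 CPM and astrocyte-like cells 7.53, 2.46 and 3.68 CPM. The same 3 classes thus stood high for both HSP70 genes, although pericyte-like cells passed below microglia-like cells for Hspa1b in the naive and 3 d libraries. The neuroblast-like and astrocyte-like levels overlapped in each library, and those of pericyte-like and microglia-like cells at 24 h.

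Pericyte-like cells had more Hspa1b at 24 h, with a log2 ratio of 0.74 (0.35 to 1.13), and 0.22 at 3 d. The 5 cells with most Hspa1b held 31.6% of the class's Hspa1b UMIs at 24 h, 25% in naive and 18.0% at 3 d, and the mean over cells gave 0.45 at 24 h, within the limit. Those 5 cells had 7674 CPM of early genes at 24 h, against 3732 CPM in the other pericyte-like cells, 4169 against 3586 CPM in naive and 3427 against 3456 CPM at 3 d. Oligodendrocyte-like cells had less Hspa1b at both times, −0.90 (−1.58 to −0.28) and −1.01 (−1.45 to −0.57). The value at 24 h was −0.48 when cells failing just 1 of the 2 cell filters were added and −1.89 without the 5 cells with most UMIs. Hspa1b in astrocyte-like cells gave −1.61 at 24 h, from 67 and 7 UMIs, and −1.03 at 3 d. Without called doublets these were 0.20 and 0.30, and in cells with at most 1 UMI of other classes' markers the first was 1.78, from 3 and 6 UMIs. Without the 5 cells with most UMIs the value at 3 d was 0.36, and that at 24 h a bound of −0.93 from 0 UMIs. In neuroblast-like cells the ratio at 24 h was −1.73 from 57 and 3 UMIs, or −0.87 without called doublets, −1.07 as a mean over cells and, without the 5 cells with most UMIs, a bound of −0.25 from 0 UMIs at 24 h. Summed over both genes, a reading chosen after seeing the data, the microglia-like ratio was −0.52 at 24 h and −0.27 at 3 d, the pericyte-like 0.32 and −0.32, and the endothelial-like −0.33 and −0.01, all within the limit. In the other 3 classes the sum passed it at 24 h, with 0.63 (0.32 to 0.93) in oligodendrocyte-like cells, −1.35 in astrocyte-like and −1.39 in neuroblast-like cells. At 3 d these were −0.88, −0.54 and −0.52, of which the first passed it. The oligodendrocyte-like sum at 24 h thus went the other way from Hspa1b alone.

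Hspa8 (ENSMUSG00000015656) encodes the constitutive HSP70 of the cytosol, which also uncoats clathrin vesicles. It was found at 945, 709 and 662 CPM in naive, 24 h and 3 d oligodendrocyte-like cells and at 711, 803 and 795 CPM in neuroblast-like cells. Endothelial-like cells held 613, 736 and 509 CPM, and microglia-like cells 583, 643 and 559 CPM. Pericyte-like cells had 434, 436 and 418 CPM, and astrocyte-like cells 375, 231 and 264.5 CPM. Hspa8 was therefore abundant in each class, and it exceeded Hspa1a in each class of the naive library except endothelial-like and pericyte-like cells. Neighbours that overlapped in the naive library were endothelial-like with microglia-like and pericyte-like with astrocyte-like cells. The one change past the limit was in astrocyte-like cells at 24 h, with a log2 ratio of −0.70 (−0.83 to −0.58), beside −0.50 at 3 d. At 24 h it was −0.55 when cells failing just 1 of the 2 filters were added and −0.09 in cells with at most 1 UMI of other classes' markers, and was thus within the limit in both.

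Dnajb1 (ENSMUSG00000005483) is the inducible J-domain partner that hands clients to HSP70. Its level was 53.3, 47.1 and 59.3 CPM in microglia-like, 53.1, 48.4 and 50.8 CPM in endothelial-like and 45.6, 22.7 and 31.9 CPM in pericyte-like cells. Oligodendrocyte-like cells had 23.7, 34.1 and 21.4 CPM, neuroblast-like cells 18.8, 26.1 and 22.2 CPM and astrocyte-like cells 11.2, 12.3 and 8.06 CPM. In the naive library the 3 classes with most Dnajb1 were thus those with most Hspa1a, over a much narrower span, and their Dnajb1 levels overlapped from neighbour to neighbour. At 24 h pericyte-like cells stood below oligodendrocyte-like and neuroblast-like cells, but the intervals of these classes overlapped. Dnajb1 fell in pericyte-like cells at 24 h, with a log2 ratio of −1.01 (−1.84 to −0.20) from 33 and 23 UMIs, and stood at −0.52 at 3 d.

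Hsph1 (ENSMUSG00000029657), of the HSP110 family, exchanges the nucleotide of HSP70. Oligodendrocyte-like cells held the most, with 80.5, 103 and 52.0 CPM, followed in the naive library by endothelial-like cells with 61.0, 59.3 and 41.6 CPM. Microglia-like cells had 52.2, 58.2 and 45.2 CPM, and pericyte-like cells 44.2, 31.5 and 30.5 CPM. In neuroblast-like cells it was at 31.7, 35.4 and 33.1 CPM, and in astrocyte-like cells at 15.7, 19.7 and 16.1 CPM. Of the naive levels, that of astrocyte-like cells did not overlap its neighbour, and the other 4 neighbouring pairs did. Hsph1 was lower in oligodendrocyte-like cells at 3 d, −0.63 (−0.91 to −0.35), after 0.36 at 24 h.

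Hsp90aa1 and Hsp90ab1 encode the inducible and the constitutive HSP90 of the cytosol. Hsp90aa1 (ENSMUSG00000021270) was at 1845, 1273 and 1377 CPM in naive, 24 h and 3 d oligodendrocyte-like cells and at 822, 876 and 832 CPM in neuroblast-like cells. The other 4 classes lay lower, with 379, 229 and 270.2 CPM in pericyte-like, 350 (349.7), 282 and 383 CPM in microglia-like, 256, 236 and 233 CPM in endothelial-like and 151, 190.0 and 128 CPM in astrocyte-like cells. Although grouped as inducible, Hsp90aa1 thus had its lowest levels in endothelial-like and astrocyte-like cells of the naive library. Pericyte-like and microglia-like levels overlapped there. Pericyte-like cells had less Hsp90aa1 at 24 h, −0.73 (−0.99 to −0.47), and −0.49 at 3 d, and in the other 5 classes the ratio stayed within the limit at both times.

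Hsp90ab1 (ENSMUSG00000023944) was the most abundant constitutive member. It reached 2177, 1179 and 1208 CPM in oligodendrocyte-like, 1580.0, 909 and 922 CPM in endothelial-like and 1393, 1400.0 and 1506 CPM in neuroblast-like cells. Pericyte-like cells held 1038, 561 and 638 CPM, microglia-like cells 739, 700 (699.6) and 601 CPM and astrocyte-like cells 384, 399 and 304 CPM. The 6 naive levels did not overlap between neighbours. Hsp90ab1 fell in 3 classes at both times, so that neuroblast-like cells led at 24 h and 3 d. In oligodendrocyte-like cells the log2 ratios were −0.88 (−0.97 to −0.80) and −0.85 (−0.90 to −0.79). In pericyte-like cells they were −0.89 (−1.05 to −0.73) and −0.70 (−0.84 to −0.56), with −1.67 at 24 h in cells with at most 1 UMI of other classes' markers. In endothelial-like cells they were −0.80 (−0.90 to −0.69) and −0.78 (−0.86 to −0.69), but 0.039 and −0.44 in cells with at most 1 UMI of other classes' markers, of which there were 8 in naive, 18 at 24 h and 28 at 3 d.

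Hspd1 (ENSMUSG00000025980) encodes the mitochondrial chaperonin HSP60 and Hspe1 (ENSMUSG00000073676) its lid, HSP10, and their genes lie head to head. Hspe1 was at 139, 170 and 114 CPM in naive, 24 h and 3 d astrocyte-like, 138, 122 and 97.4 CPM in oligodendrocyte-like and 136, 176 and 132 CPM in microglia-like cells. It was at 127, 99.5 and 100.3 CPM in pericyte-like, 126, 128 and 125 CPM in neuroblast-like and 100.4, 67.1 and 74.1 CPM in endothelial-like cells. Its 6 naive levels overlapped from each neighbour to the next, and its ratio stayed within the limit in the 6 classes at both times. The nearest to it was −0.58 in endothelial-like cells at 24 h, a 1.497-fold lower level.

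Hspd1 stood at 166, 91.6 and 104 CPM in oligodendrocyte-like, 116, 79.8 and 84.3 CPM in pericyte-like and 111, 116 and 104 CPM in neuroblast-like cells. Levels of 74.6, 59.3 and 64.6 CPM were found in endothelial-like, 73.7, 78.5 and 62.5 CPM in astrocyte-like and 68.6, 85.6 and 68.3 CPM in microglia-like cells. Oligodendrocyte-like cells led in the naive library without overlap with the next class, and at 24 h and 3 d their level overlapped that of neuroblast-like cells. They were also the class in which Hspd1 fell, with log2 ratios of −0.85 (−1.16 to −0.56) at 24 h and −0.67 (−0.86 to −0.47) at 3 d. At 24 h the ratio was −2.83 in oligodendrocyte-like cells with at most 1 UMI of other classes' markers. It rests on few cells, 7 in naive and 4 at 24 h.

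Hspb1 (ENSMUSG00000004951) encodes the small heat shock protein HSP27 (HSP25 in mice), which holds unfolded proteins and binds actin. It stood at 1910.0 CPM in naive, 904 CPM in 24 h and 1237 CPM in 3 d endothelial-like cells. Pericyte-like cells had 593, 273 and 198.5 CPM, and microglia-like cells 25.4, 19.0 and 19.4 CPM. Hspb1 was thus mainly a vascular gene in these cells, and its endothelial-like and pericyte-like levels overlapped no neighbour in any of the 3 libraries. Neuroblast-like cells had 12, 0 and 2.22 CPM, oligodendrocyte-like cells 10.0, 1.67 and 7.81 CPM and astrocyte-like cells 2.25, 13 and 1.70 CPM. In endothelial-like cells it fell, with log2 ratios of −1.08 (−1.18 to −0.98) at 24 h and −0.63 (−0.70 to −0.55) at 3 d. The value at 3 d was −0.57 without called doublets, −0.50 as a mean over cells and −0.57 in cells with at most 1 UMI of other classes' markers, each within the limit. Pericyte-like cells gave −1.12 (−1.34 to −0.90) and −1.58 (−1.80 to −1.36). Hspb1 was therefore lower in both vascular classes at both times, with the lower of the 2 TIA levels at 24 h in endothelial-like and at 3 d in pericyte-like cells.

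Outside the vessels, Hspb1 rested on few UMIs. Neuroblast-like cells held 66 UMIs in naive, 0 at 24 h and 7 at 3 d. With 0 read as a floor of 3 UMIs, the 24 h level was at least 3.84-fold lower than naive (log2 −1.94), while the exact interval reaches up to −1.60, and the 3 d ratio was −2.43 (−3.80 to −1.31). Without called doublets the bound at 24 h was 0.48 and the 3 d ratio −0.11, the bound was 0.44 without the 5 cells with most UMIs, and no lower level at 24 h was then shown. At a cluster resolution of 0.2, the 24 h ratio was −3.55. Oligodendrocyte-like cells had 33 and 2 UMIs in naive and at 24 h, a log2 ratio of −2.59 with an interval from −5.69 to −0.62. In astrocyte-like cells, Hspb1 rose at 24 h with a log2 ratio of 2.53 (1.71 to 3.40), from 20 UMIs in naive and 37 at 24 h. Of those 37 UMIs, 36 came from 5 cells (97.3%) and 23 from a single cell, and without the 5 cells with most UMIs in each library the ratio was −1.13. It was 3.45 without called doublets, 3.36 when cells failing just 1 of the 2 filters were added and at least 3.72 in cells with at most 1 UMI of other classes' markers, which held 0 Hspb1 UMIs in naive. The 5 cells also held 771 CPM of Hspe1, against 151 CPM in the other 233.

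**Figure D2:**
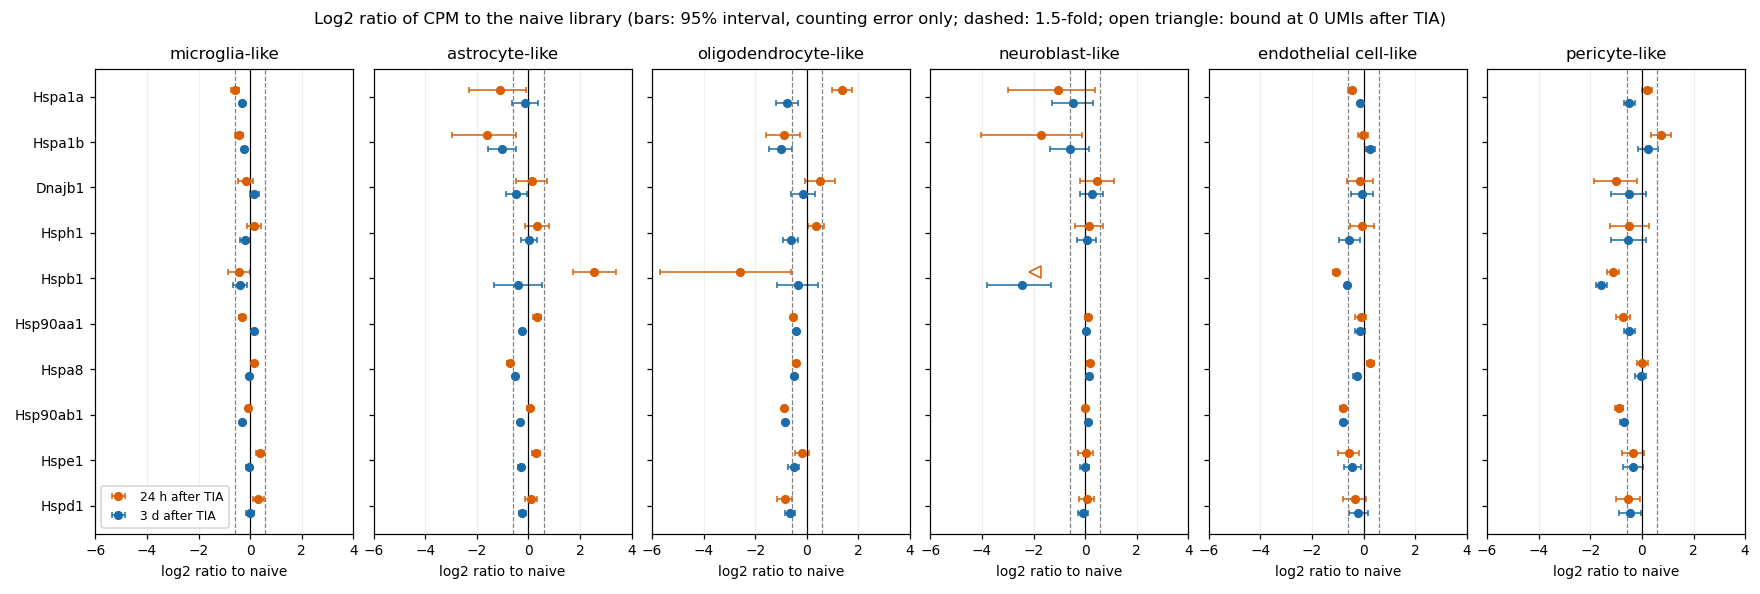
Log2 ratio of each member's CPM at 24 h and 3 d to naive, by class, with exact binomial 95% intervals and dashed lines at 1.5-fold. Hsp90ab1 lies past the lower line at both times in oligodendrocyte-like (−0.88 and −0.85), endothelial-like (−0.80 and −0.78) and pericyte-like cells (−0.89 and −0.70), and the 3 values past the upper line are Hspa1a in oligodendrocyte-like (1.36), Hspb1 in astrocyte-like (2.53) and Hspa1b in pericyte-like cells (0.74) at 24 h.

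**Figure D3:**
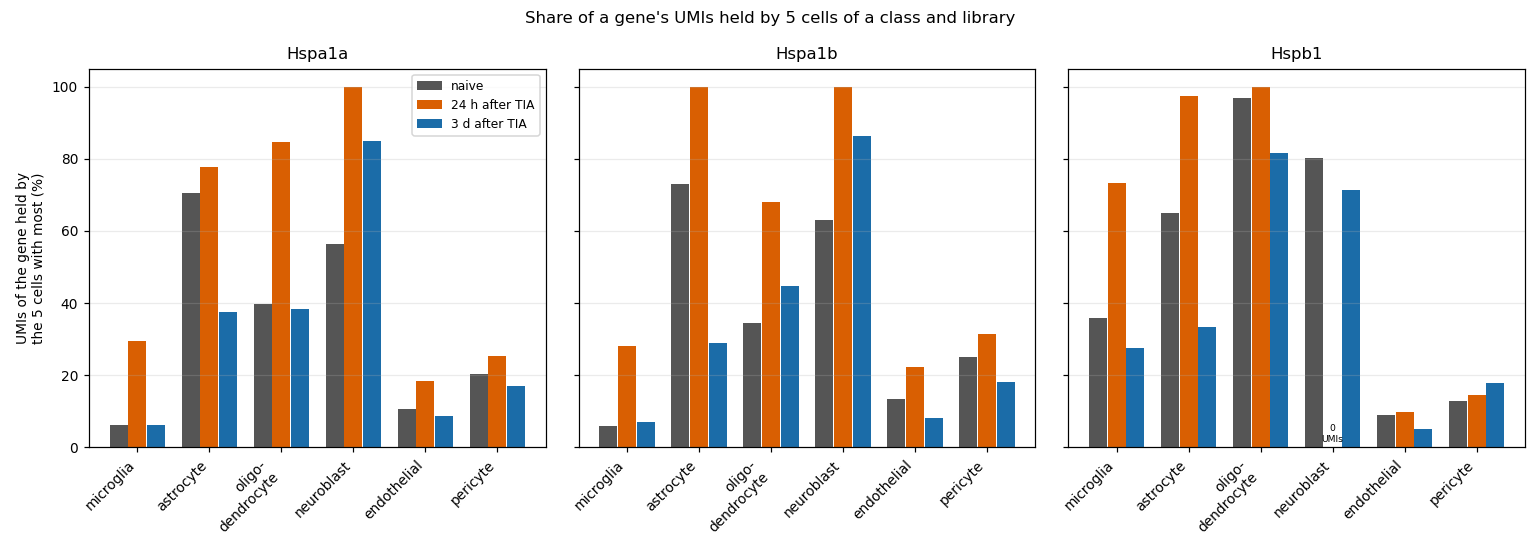
Share of a gene's UMIs in a class and library that came from the 5 cells with most of them, for Hspa1a, Hspa1b and Hspb1. At 24 h these cells held 84.8% of Hspa1a in oligodendrocyte-like, 97.3% of Hspb1 in astrocyte-like and 29.6% of Hspa1a in microglia-like cells.

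By class, oligodendrocyte-like cells held the most lower members at 3 d. At 24 h, 1 of 10 members was higher and 4 were lower in this class, beside 10.4 and 15.3% of all genes, and at 3 d 0 were higher and 5 lower, beside 10.9 and 4.48%. Summed, its constitutive members went from 3426 to 2102 and 2071 CPM (log2 −0.70 and −0.73), and its inducible members from 2037 to 1531 and 1500.0 CPM (−0.41 and −0.44). The inducible sum of this class was mostly Hsp90aa1, with 6074 of 6704 UMIs in naive, 1529 of 1839 at 24 h and 4764 of 5190 at 3 d. Without this class, a reading chosen after seeing the data, 6 of 50 pairs were lower at 3 d and 0 higher, beside 4.86 and 7.44% of all genes in the other 5 classes. The median depth of its cells was 13417, 16150.5 and 12899 UMIs. The markers of the other 5 classes, 36 genes, summed to 1088, 856 and 1594 CPM, led by Slc1a2, Tubb3 and Slc1a3, with 1 (Abcc9), 11 and 0 of them at 0. The 11 at 24 h were Aqp4, Dcx, Sox11, Dlx1, Dlx2, Dlx6os1, Itm2a, Slco1a4, Abcc9, Rgs5 and Ndufa4l2. Their part in the members' values was not tested.

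Pericyte-like cells had 1 member higher and 4 lower at 24 h, beside 9.53 and 8.67% of all genes, and 0 higher and 2 lower at 3 d, beside 15.9 and 6.09%. The inducible members together went from 1625 to 1259 and 984 CPM (log2 −0.37 and −0.72), and the constitutive members from 1715 to 1176 and 1241 CPM (−0.54 and −0.47). Markers of the other classes, 36 genes, summed to 1731, 733 and 3339 CPM, led by Slc1a2 in naive and 3 d, with 2 (Gfap, Cdh5), 5 (Aqp4, Mog, Mobp, Stmn2, Cdh5) and 0 at 0. Median depth was 4294, 5275 and 3913.5 UMIs, and the part of either in the members' values was not tested.

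In endothelial-like cells 0 members were higher and 2 lower at 24 h, beside 8.56 and 9.70% of all genes, and again 0 and 2 at 3 d, beside 11.3 and 5.16%. Their inducible sum went from 3435 to 2166 and 2710.0 CPM (log2 −0.67 and −0.34) and their constitutive sum from 2368 to 1772 and 1569 CPM (−0.42 and −0.59). The 36 markers of other classes reached 2158, 1642 and 2308 CPM, led by Mal at 24 h, with 0, 2 (Aqp4, Dlx2) and 0 at 0, at a median depth of 4643, 5690.0 and 4263 UMIs. Whether these moved the members' values was not tested.

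Astrocyte-like cells had 1 member higher and 3 lower at 24 h, beside 9.54 and 13.9% of all genes, and 0 higher and 1 lower at 3 d, beside 5.16 and 3.58%. The inducible sum was 194, 241 and 164 CPM, and the constitutive sum 971, 877 and 745 CPM. Neuroblast-like cells had 0 members higher and 3 lower at 24 h, beside 4.93 and 17.7%, and 0 higher and 1 lower at 3 d, beside 2.96 and 6.62%. The inducible sum of neuroblast-like cells was 904, 944 and 903 CPM and the constitutive sum 2340.0, 2446 and 2529 CPM, so that the abundant members kept their levels within the limit in this class. Markers of other classes summed to 937, 444 and 723 CPM in astrocyte-like cells, with 1 (Higd1b), 4 (Gad1, Cdh5, Abcc9, Higd1b) and 0 of 36 at 0. In neuroblast-like cells they summed to 2053, 533 and 1641 CPM, led by Slc1a2, Slc4a4 and Slc1a2, with 0, 8 (Aqp4, Gfap, Cldn11, Mal, Cdh5, Abcc9, Higd1b, Ndufa4l2) and 0 of 35 at 0, and their part in the members' values was not tested.

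Microglia-like cells had the fewest calls of the 6 classes. At 24 h 0 members were higher and 1 lower, beside 8.54 and 6.64% of all genes, and at 3 d 0 were higher and 0 lower, beside 5.24 and 3.48%. A count of 1 in 10 is near the background and is no result about the members. The inducible sum was 936, 723 and 883 CPM and the constitutive sum 1527, 1604 and 1360.0 CPM. Markers of the other classes, 36 genes led by Slc1a3, summed to 673, 564 and 713 CPM, with 0, 1 (Dlx2) and 0 at 0. Their part in the members' values was not tested.

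Microglia-like cells were made of 2 clusters that differed in HSP70 and in share. The larger cluster held 80.6% of the class in naive, 66.7% at 24 h and 70.6% at 3 d, with Hspa1a at 299.5, 245 and 246 CPM. The smaller one, whose leading genes were Cxcl10, Ccl12, Tnf and Ccl2, held 19.4%, 33.3% and 29.4%, with Hspa1a at 66.4, 40.9 and 109.8 CPM. Within the larger cluster the log2 ratio of Hspa1a was −0.29 (−0.44 to −0.14) at 24 h and −0.29 at 3 d, within the limit at both times. No member passed the limit in this cluster, with 0 higher and 0 lower at 24 h, beside 8.40 and 6.21% of all genes, and at 3 d, beside 4.74 and 3.32%. In the smaller cluster 2 members were higher and 4 lower at 24 h, beside 12.3 and 9.61%, and at 3 d 1 was higher and 0 were lower, beside 8.44 and 3.83%. Hspa1a gave −0.70 (−1.23 to −0.19) there at 24 h and was the one higher at 3 d, 0.73 (0.42 to 1.04). The other 3 lower at 24 h were Hspa1b with −0.78 (−1.41 to −0.19), Dnajb1 with −0.75 (−1.20 to −0.33) and Hspb1 with −3.55 (−6.65 to −1.59), from 36 and 2 UMIs. The mitochondrial pair stood higher at 24 h, with 0.82 (0.54 to 1.09) for Hspe1 and 0.92 (0.54 to 1.30) for Hspd1, and 0.16 for each at 3 d.

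Astrocyte-like cells were made of 3 clusters, which held 52.6%, 36.2% and 11.2% of the class in naive, 42.4%, 48.7% and 8.82% at 24 h and 44.4%, 45.3% and 10.2% at 3 d. The first had 0 members higher and 4 lower at 24 h, beside 9.30 and 15.2% of all genes, and 0 higher and 1 lower at 3 d, beside 5.27 and 3.49%. The second went the other way at 24 h, with 5 higher and 0 lower, beside 13.3 and 12.2%, and had 0 higher and 1 lower at 3 d, beside 6.24 and 3.18%. The third had 0 past the limit at 24 h, beside 13.6 and 16.7%, and at 3 d, beside 11.6 and 5.52%. From 1 to 5 members had too few UMIs in a cluster at a time. In the first, 51 Hspa1a UMIs in naive faced 1 at 24 h (log2 −3.59, interval −8.92 to −1.05), and Hspa1b went from 59 to 0, a bound of −2.21. In the second, both had as many UMIs at 24 h as in naive, 8 of Hspa1a and 5 of Hspa1b, with ratios of 1.18 and intervals from −0.43 to 2.79 and from −0.94 to 3.30. In the third there were at most 3 UMIs of either gene in naive and at 24 h. The lower class values of both genes at 24 h thus came from the first cluster. Over the whole naive class, however, 5 cells held 70.5% of the Hspa1a UMIs and 73.1% of the Hspa1b UMIs. Without called doublets the naive class held 17 and 18 UMIs, and the class ratios at 24 h were 0.65 and 0.20. The cluster values were not computed without these cells, so no fall within the first cluster is shown apart from them. At 3 d Hspa1b gave −1.28 (−1.95 to −0.62) in the first and 0.98 in the second, there from 5 and 20 UMIs. Hspb1 at 24 h was at 1.60 in the first, from 14 and 10 UMIs, and 3.61 (2.21 to 5.34) in the second, from 5 and 27 UMIs. The other 4 members higher there were Dnajb1 with 0.72 (−0.10 to 1.52), Hsph1 with 0.69 (−0.02 to 1.37), Hsp90aa1 with 0.63 (0.43 to 0.83) and Hspe1 with 0.60 (0.37 to 0.82). Few cells carried part of these UMIs. Over the whole class at 24 h, the 5 cells with most UMIs held 97.3% of Hspb1 and 28.6% of Dnajb1. For Hsph1 they held 21.4%, for Hsp90aa1 17.2% and for Hspe1 16.2%. Dnajb1 was lower in the first cluster at 24 h, −1.09 (−2.46 to 0.04) from 63 and 7 UMIs, and in the second at 3 d, −0.61. Hspa8 stood at −0.78, −0.58 and −0.41 at 24 h, past the limit in the first cluster. The clusters of both classes were examined after the class values were seen.

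Dissociation of tissue is known to induce immediate early genes, and inducible chaperones with them. The 22 immediate early and dissociation genes summed to 14190.0, 14790.0 and 14660.0 CPM in naive, 24 h and 3 d microglia-like cells, and to 11640.0, 11920.0 and 12150.0 CPM in endothelial-like cells. They reached 3606, 3893 and 3455 CPM in pericyte-like and 1707, 2330.0 and 1998 CPM in oligodendrocyte-like cells. In neuroblast-like cells they were at 1541, 1511 and 1595 CPM, and in astrocyte-like cells at 1129, 1114 and 890.4 CPM. The 3 classes with most early gene RNA were thus the 3 with most Hspa1a, in another order. The part of dissociation in the members' levels was not tested.

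Cell by cell, Hspa1a was a gene of many endothelial-like cells and of a minority of microglia-like cells. After each cell was thinned to 3000 UMIs, 59.3% (52.8 to 65.7%) of naive, 39.0% (32.3 to 46.1%) of 24 h and 55.4% (50.8 to 59.9%) of 3 d endothelial-like cells had an Hspa1a UMI. Without thinning the shares were 58.5%, 40.6% and 54.0%. Microglia-like cells gave 24.95% (22.3 to 27.8%), 16.9% (12.7 to 21.8%) and 23.0% (20.7 to 25.4%), and 33.6%, 30.5% and 32.6% without thinning. In pericyte-like cells the Hspa1a shares were 48.9% (40.4 to 57.5%), 43.9% (36.3 to 51.6%) and 39.8% (33.8 to 46.1%) after thinning. The naive and 24 h shares overlapped, beside summed levels of 453 and 519 CPM. Hspb1 was found in 92.4%, 81.5% and 85.7% of endothelial-like and 73.0%, 42.7% and 37.9% of pericyte-like cells after thinning, with 90.9%, 86.5% and 88.3% and 79.9%, 57.1% and 46.95% before it. The share of cells with Hspa1a and with Hspb1 was thus lowest at 24 h in endothelial-like cells, as the summed levels were. For Hspb1, however, the thinned shares at 24 h (75.5 to 86.5%) and 3 d (82.2 to 88.7%) overlapped. Cells with and without an HSP70 UMI were compared for Hsph1, Dnajb1 and the early genes. Hsph1 was found in 15.1% of naive microglia-like cells with an Hspa1a or Hspa1b UMI and 5.30% of those without, 20.8% and 5.34% at 24 h, and 17.3% and 5.76% at 3 d. Dnajb1 differed less in the same cells, with 13.9% and 13.1% in naive, 18.1% and 9.71% at 24 h and 15.4% and 13.3% at 3 d. In endothelial-like cells the shares with Hsph1 were 16.4% and 7.04% in naive, 18.6% and 6.80% at 24 h and 10.7% and 5.16% at 3 d. Those with Dnajb1 were 17.6% and 11.3%, 18.6% and 7.77%, and 13.5% and 14.8%, so that the order turned at 3 d. Endothelial-like cells with an HSP70 UMI held a mean of 43.3 early gene UMIs in naive, against 20.4 in those without, 44.0 against 24.6 at 24 h and 41.1 against 30.2 at 3 d. For microglia-like cells these means lay closer, at 41.2 against 43.7 in naive, 48.5 against 43.7 at 24 h and 43.6 against 44.1 at 3 d. The microglia-like shares and means pool both clusters of the class, which differed in these genes. In naive, the larger and the smaller cluster held 299.5 and 66.4 CPM of Hspa1a and 60.7 and 17.2 CPM of Hsph1. For Dnajb1 they held 42.8 and 96.6 CPM, and for the early genes 12430 and 21460 CPM. The part of the clusters in the shares and means was not tested.

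Free RNA in the droplets and doublets both give UMIs to cells that do not express a gene. Cldn5, a junction gene of endothelial cells, served as the gauge: after thinning it was found in 100% of naive endothelial-like cells, but also in 0.805% of microglia-like, 0.461% of astrocyte-like, 1.73% of oligodendrocyte-like, 1.72% of neuroblast-like and 2.13% of pericyte-like cells. The median depth of the naive classes was 4643 UMIs in endothelial-like, 7892 in microglia-like, 9334 in astrocyte-like, 13417 in oligodendrocyte-like, 6988 in neuroblast-like and 4294 in pericyte-like cells. In 8 of the 50 pairs outside endothelial-like cells, the member's naive share overlapped that of Cldn5, so that a level above the gauge was not shown. These were Hspa1a, Hspa1b and Hspb1 in astrocyte-like and in neuroblast-like cells, and Hspb1 and Dnajb1 in oligodendrocyte-like cells. They held 1 of the 3 higher and 6 of the 17 lower calls at 24 h, and 2 of the 11 lower calls at 3 d. Of the remaining 52 pairs, 2 rose and 11 fell at 24 h, beside 8.49 and 12.2% of all genes in the 6 classes, and 0 rose and 9 fell at 3 d, beside 7.98 and 4.80%. Naive endothelial-like cells held 0.280 Hspb1 UMIs per Cldn5 UMI, and naive neuroblast-like and oligodendrocyte-like cells 0.332 and 0.388. Astrocyte-like cells had 1.43 in naive, from 20 and 14 UMIs, 3.7 at 24 h and 0.348 at 3 d. Microglia-like cells had 8.46, 4.67 and 2.22, and pericyte-like cells 53.6, 277 and 23, the second of them from 1 Cldn5 UMI. Cldn5 UMIs do not tell free RNA from doublets. In naive before thinning, 199 of them lay in 2.48% of neuroblast-like and 85 in 3.45% of oligodendrocyte-like cells, but 14 in 1.23% of astrocyte-like cells. The part of free RNA or of doublets in the levels above was not tested.

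A pair of smaller groups gave levels in the naive and 3 d libraries alone, since they had under 50 cells at 24 h. Dividing progenitor-like cells, 197 in naive and 186 at 3 d, also met the marker rule of mature neurons and neuroblasts. They held 5553 and 4881 CPM of all members, of which 3773 and 3366 CPM were constitutive and 1781 and 1515 CPM inducible. The constitutive members were led by 2064 and 1947 CPM of Hsp90ab1, 1147 and 939 CPM of Hspa8, 295 and 253 CPM of Hspe1 and 267 and 227 CPM of Hspd1. Of the inducible members, Hsp90aa1 was at 1609 and 1365 CPM, Hsph1 at 91.2 and 82.6 CPM, Dnajb1 at 55.5 and 43.9 CPM and Hspa1a at 11.2 and 10.1 CPM. Markers of the 6 compared classes, 43 genes led by Sox11, summed to 6688 and 6064 CPM in these cells, 4937 and 4409 CPM of it from neuroblast markers, with 0 and 1 (Higd1b) at 0. Their median depth was 16113 and 18901 UMIs. Border-associated macrophage-like cells, 60 and 107, had 287.5 and 215 CPM of Hspa1a beside 727 and 619.7 CPM of Hsp90ab1. Their cluster also met the marker rule of microglia, monocytes and dendritic cells, and its 10 leading genes held S100a8, H2-Aa, H2-Eb1, H2-Ab1 and Cd74 beside F13a1, Pf4, Ms4a7 and Mrc1. They carried 16140.0 and 15400.0 CPM of microglia markers, against 19960.0 and 17790.0 CPM in microglia-like cells, and 1222 and 279 CPM of their own markers, at a median depth of 20801 and 40721 UMIs. Of the 43 markers of the 6 classes, which summed to 16930.0 and 16170.0 CPM, 1 (Mog) and 1 (Dlx2) were at 0. The part of either in the levels of both groups was not tested.

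The other genes of the system were taken from lists, and a gene was counted in each class in which both sums together held at least 30 UMIs, to be read beside the shares of all genes given above. The list of heat shock factors and their regulator, 4 genes, gave 0 calls in 18 pairs at 24 h and 1 higher at 3 d, the HSF1 gene Hsf1 in neuroblast-like cells, with a log2 ratio of 0.72 (13.7 to 22.6 CPM). Hsf2 in astrocyte-like cells had 0.47 at 24 h, and Hsbp1, a negative regulator, −0.21 in oligodendrocyte-like cells at 24 h and −0.36 in endothelial-like cells at 3 d. Of 43 pairs of other HSP70 and HSP110 genes, 2 were higher and 5 lower at 24 h, and of 44 at 3 d, 1 higher and 3 lower. Among them were Hspa12a in microglia-like cells at 24 h (−0.59), and Hspa4l (−0.98) and Hspa2 (0.67) in oligodendrocyte-like cells at 3 d, and Hspa4 gave −0.48 in endothelial-like cells at 24 h. Of 56 J-domain pairs, 3 were higher and 2 lower at 24 h, with Dnajb2 at −0.79 in oligodendrocyte-like and Dnajb5 at 0.73 in astrocyte-like cells. Of 57 at 3 d, 2 were higher and 1 lower, with Dnajc5 at 0.80 in pericyte-like and Dnaja1 at −0.68 in oligodendrocyte-like cells. These lists had medians between −0.05 and 0.08, near those of all genes.

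Small heat shock proteins beside Hspb1 gave 3 higher and 6 lower of 16 pairs at 24 h and 0 higher and 5 lower of 18 at 3 d, with medians of −0.24 and −0.19. Cryab, a small chaperone abundant in oligodendrocytes, rose from 62.8 to 125 CPM in astrocyte-like cells at 24 h (0.99) and fell from 2977 to 1648 CPM in oligodendrocyte-like cells at 3 d (−0.85). Hspb11 was lower in neuroblast-like cells at 24 h (−1.15), and Hspb3 in microglia-like cells at 3 d (−0.77). Among 60 pairs of HSP90 cochaperones, 5 rose and 5 fell at 24 h, and 6 rose and 5 fell at 3 d, with medians of −0.01 and −0.07. The widest change was that of Fkbp5, an immunophilin of HSP90 bound to steroid receptors, from 4.61 to 110.1 CPM in astrocyte-like cells at 24 h (4.58) and from 7.59 to 65.9 CPM in oligodendrocyte-like cells at 3 d (3.12). Stip1, which links HSP70 to HSP90, fell in oligodendrocyte-like cells at 24 h (−0.96) and Ahsa1, which speeds the HSP90 cycle, in pericyte-like cells at 3 d (−1.15). Of 43 pairs of HSP70 cochaperones, 4 were higher and 2 lower at 24 h, and of 44 at 3 d 1 higher and 2 lower, with medians of 0.11 and −0.04. Bag3, an exchange factor of HSP70, was lower in microglia-like cells at both times (−0.76 and −0.60), and St13 in oligodendrocyte-like cells gave −0.58 at 24 h and −0.64 at 3 d, of which the second passed the limit.

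Of the 48 pairs of the cytosolic chaperonin TRiC, 1 rose and 2 fell at 24 h, and 0 rose and 1 fell at 3 d, with medians of 0.05 and −0.10. Its subunit gene Tcp1 rose in microglia-like cells at 24 h (0.76), Cct3 in endothelial-like cells gave −0.60 and −0.46, and Cct5 in pericyte-like cells −0.62 at 3 d. Most pairs of chaperones of the endoplasmic reticulum were within the limit, and those past it were nearly all lower, with 18 lower and 1 higher of 64 pairs at 24 h and 12 lower and 0 higher of 65 at 3 d, and medians of −0.23 and −0.27. Hspa5, the HSP70 of that compartment, fell from 296 to 113 CPM at 24 h (−1.39) and to 175 CPM at 3 d (−0.76) in oligodendrocyte-like cells. Sdf2l1 was lower in oligodendrocyte-like cells at 24 h (−1.35) and in astrocyte-like cells at 3 d (−0.80). Serpinh1, the collagen chaperone, fell in pericyte-like cells at 24 h (−0.86) and in endothelial-like cells at 3 d (−0.90). The immediate early and dissociation genes moved both ways over the 6 classes, with 26 higher and 21 lower of 118 pairs at 24 h and 24 higher and 19 lower of 126 at 3 d, and medians of −0.01 and 0.06. The directions differed by class. In oligodendrocyte-like cells 9 of 16 were higher at 24 h and 16 of 21 at 3 d, with 0 lower and medians of 0.71 and 0.99. In astrocyte-like cells 3 were higher and 9 lower of 21 at 24 h, and 2 and 9 at 3 d, with medians of −0.23 and −0.51. Neuroblast-like cells had 3 higher and 8 lower of 21, then 2 and 5. Microglia-like cells had 6 higher and 0 lower of 22, then 0 and 0, and in the vascular classes 2 or 3 passed the limit in each direction at each time. Nfkbia rose in oligodendrocyte-like cells at both times (3.48 and 2.19) and Klf2 at 3 d (2.22), and Atf3 fell in astrocyte-like cells at 24 h (−4.00).

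Over the 18 sums of class and library, the genes most like the summed inducible members were sought by Pearson's correlation of log2(CPM + 1) among 2802 genes with at least 30 UMIs in each sum. They were Sptssa (0.94), Serf2 (0.94), Srp9 (0.93), Eapp (0.93) and App (0.93). The sums share libraries and classes and are not independent, so these values are a description.

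Promoters were compared because HSF1 acts on a shared motif and because Hspa1a, Hspa1b and Hspb1 were the members whose levels differed most between classes. A set of RefSeq promoters of build GRCm38.p6 was used, 250 bases before to 50 after the start. It held 10 entries of 7 members. The set used had no entry for Hspa8, Hsp90aa1 or Hsp90ab1, so their promoters were not described. A motif of 2 inverted units, GAANNTTC or TTCNNGAA, each its own reverse complement and so the same on both strands, was searched. It occurs in 15.1% of all 32851 promoters and in those of 6 of the 7 members. A motif of 3 units, GAANNTTCNNGAA or TTCNNGAANNTTC on either strand, which contains the one of 2 units, occurs in 0.603% of all promoters and in those of 3 members, Hspe1, Hsph1 and Hspd1. Of the 2 Hspd1 windows, that of the start at position 55087932 of chromosome 1 holds the matches, and that of the start at 55088243 holds 0 of either motif. The former start lies 216 bases from that of Hspe1, in the opposite direction, and the windows of these 2 starts share 285 bases. Hspb1 had 2 matches of 2 units, which begin 117 and 97 bases before its start, Hspa1a and Hspa1b had 1 each, 104 bases before theirs, and Dnajb1 had none in either of its windows. The 120 bases before the start are shown 5′ to 3′ with matches in capitals: for Hspb1 chr5:135887799-135887918 (plus strand), for Hspa1b chr17:34959239-34959358 (minus strand) and for Hspa1a chr17:34972157-34972276 (minus strand).
Hspb1: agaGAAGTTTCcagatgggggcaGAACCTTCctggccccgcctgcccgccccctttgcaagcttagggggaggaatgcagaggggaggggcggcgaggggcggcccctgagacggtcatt
Hspa1b: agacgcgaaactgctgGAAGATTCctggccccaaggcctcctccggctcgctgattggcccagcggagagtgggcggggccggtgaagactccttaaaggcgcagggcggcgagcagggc
Hspa1a: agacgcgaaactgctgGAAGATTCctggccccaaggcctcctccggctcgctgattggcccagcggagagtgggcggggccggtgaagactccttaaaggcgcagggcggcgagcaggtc
The Hspa1a and Hspa1b stretches differ at 1 of 120 bases, and their whole windows at 4 of 300. A match is a description of letters in the window, not a bound site, and no match says only that these letters are not in it.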

How the data were processed

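The authors deposited raw UMI count matrices of 3 libraries (10x 3′ v3.1, build mm10). Their processing notes name Cell Ranger 3.1.0 and the file headers 7.1.0. Here Seurat 5.3.0 in R 4.3.3 clustered all kept cells (2000 variable genes, UMI number and mitochondrial share regressed out, 20 components, resolution 0.5). A cluster was named when at least 3 markers of a type were in at least 10% of its cells and at least 2-fold above other clusters. UMIs were summed by class and library and scaled to CPM with numpy 2.4.6, pandas 2.3.3 and scipy 1.17.1 (exact Poisson and binomial 95% intervals, a floor of 3 UMIs for sums of 0). Steps were tested on simulated data. No test between conditions was made, since each had 1 library. Left out were a shallow cluster (7.44, 2.04 and 3.12% of naive, 24 h and 3 d cells), one with haemoglobin and mixed markers (2.41, 1.96 and 2.05%) and 23 fibroblast-like cells. Named genes are the 10 members and, of each other list, the 2 with the largest absolute log2 ratio at each time among those with at least 100 UMIs; some withheld items are not reported here. Alternatives changed the cell filter, doublets (Scrublet in scanpy 1.11.5), resolution, clustering genes, scaling, cell weights, cells used, limits and grouping. Members and lists were chosen with earlier results of these data known.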

Additional observations from a re-analysis of the deposited data

Results flagged for a closer look

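For 3 of the 10 members, classes moved in opposite directions past 1.5-fold at 24 h. The share of all genes that did so is not given here, so this count is no result about the members. Of all genes tested in the 6 classes together, 8.49% were higher and 12.2% lower at 24 h. The difference between classes was not tested, and the libraries have no replicate.

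Hspa1a had a log2 ratio to naive of 1.36 in oligodendrocyte-like cells, and of −0.59 in microglia-like, −1.11 in astrocyte-like and −1.07 in neuroblast-like cells. Hspa1b had 0.74 in pericyte-like cells, and −1.61 in astrocyte-like, −0.90 in oligodendrocyte-like and −1.73 in neuroblast-like cells. Hspb1 had 2.53 in astrocyte-like cells, and −2.59 in oligodendrocyte-like, −1.08 in endothelial-like and −1.12 in pericyte-like cells, with a bound of −1.94 in neuroblast-like cells, where the 24 h library had 0 UMIs. The values of the 3 members in astrocyte-like and neuroblast-like cells, and that of Hspb1 in oligodendrocyte-like cells, belong to pairs whose naive share of cells overlapped that of Cldn5, the gauge gene. The one higher value of Hspb1 is among them. Without the 5 cells with most UMIs, Hspa1a in oligodendrocyte-like cells was at −0.55 and Hspb1 in astrocyte-like cells at −1.13. Without called doublets, Hspa1a was at 0.65 in astrocyte-like and 0.10 in neuroblast-like cells and Hspa1b at 0.20 in astrocyte-like cells, while the bound of Hspb1 in neuroblast-like cells was 0.48. The higher value of Hspa1b in pericyte-like cells was 0.45 as a mean over cells, within the limit. Hspa1a in microglia-like cells was at −0.56 with totals free of mitochondrial and ribosomal protein UMIs. In the larger microglia-like cluster it was at −0.29, and both values lay within the limit. Hspa1b in oligodendrocyte-like cells was at −0.48, also within it, when cells failing just 1 of the 2 filters were added.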

How the results depend on the processing

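There were 31 calls of a member in a class at a time, in 21 pairs of member and class. Of these calls, 15 passed 1.5-fold in the same direction under each alternative that gave a value, 8 at 24 h and 7 at 3 d, and 7 turned direction under at least 1 alternative. For Hspb1 in neuroblast-like cells at 24 h, with 0 UMIs, the bound rose above 0 under 2 alternatives, which shows no direction. The cause was not tested for any value below. Neither change of scaling turned a direction.

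Without called doublets, which were 3.04% of naive, 0.49% of 24 h and 2.93% of 3 d cells, 3 of 55 pairs were higher and 11 lower at 24 h, beside 8.96 and 10.0% of all genes, and 1 of 56 was higher and 9 lower at 3 d, beside 6.73 and 4.30%. Hspa1a then stood at a log2 ratio of 0.65 in astrocyte-like and 0.10 in neuroblast-like cells at 24 h, Hspa1b in astrocyte-like cells at 0.20 at 24 h and 0.30 at 3 d, and the bound of Hspb1 in neuroblast-like cells at 0.48. In cells with at most 1 UMI of other classes' markers, which kept 1.21 to 20.2% of a class, 5 of 30 pairs were higher and 9 lower at 24 h, beside 15.4% of all genes in each direction, and 2 of 31 were higher and 6 lower at 3 d, beside 11.3 and 7.99%. The 24 h medians there were −0.75 for the inducible and 0.15 for the constitutive members, with Hspa1a at 2.10 and Hspa1b at 1.78 in astrocyte-like cells and Hsp90ab1 at 0.039 in endothelial-like cells. Without the 5 cells with most UMIs of a gene, 1 of 53 pairs was higher and 15 lower at 24 h, beside 5.30 and 22.3% of all genes, and 1 of 55 was higher and 9 lower at 3 d, beside 9.64 and 4.35%. Hspa1a in oligodendrocyte-like cells was at −0.55, Hspb1 at −1.13 in astrocyte-like and 0.44 (a bound) in neuroblast-like cells at 24 h, and Hspa1b in astrocyte-like cells at 0.36 at 3 d. As a mean over cells, Hspa1a in astrocyte-like cells was at 0.45 at 24 h. A 2-fold limit left 2 of 60 pairs higher and 9 lower at 24 h, beside 2.49 and 5.63% of all genes, and 0 higher and 4 lower at 3 d, beside 2.81 and 1.23%. A minimum of 100 UMIs left 2 of 51 pairs higher and 10 lower at 24 h, beside 6.07 and 7.13%, and 0 of 53 higher and 10 lower at 3 d, beside 4.19 and 2.26%. Without oligodendrocyte-like cells, an alternative chosen after seeing the data, 2 of 50 pairs were higher and 13 lower at 24 h, beside 8.15 and 11.6% of all genes, and 0 were higher and 6 lower at 3 d, beside 7.44 and 4.86%. Summing Hspa1a and Hspa1b, also chosen after seeing the data, gave 2 higher and 13 lower of 54 pairs at 24 h, beside 8.49 and 12.2% of all genes, and 0 higher and 9 lower at 3 d, beside 7.98 and 4.80%.

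No paired analysis was possible because each library pooled 3 mice and no mouse was sampled at more than 1 time. Depth limits the low levels most. Ratios that rest on fewer than 10 UMIs in a library had intervals wider than 2 log2 units. These were Hspa1a and Hspa1b in astrocyte-like and neuroblast-like cells and Hspb1 in oligodendrocyte-like cells at 24 h, and Hspb1 in neuroblast-like cells at both times. The reads behind the Hspa1a and Hspa1b counts were not analysed here.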
